A study of Mus musculus with 14 samples.

Results

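The marker genes of GABAergic interneurons were followed in 14 RNA libraries from the hippocampus of young mice. The 10 genes were chosen by name: Gad1, Gad2, Slc32a1, Pvalb, Sst, Vip, Npy, Cck, Reln and Htr3a. All 10 had a value in all 14 libraries, among 18722 genes with any value, and all 10 were among the 16569 genes tested. The mice were C57BL6, either wild type (KMT2D+/+) or heterozygous for a gene trap allele (KMT2D+/bGeo), called mutants below. KMT2D is a histone methyltransferase. From 2 weeks of age they were gavaged for 2 weeks with the LSD1 inhibitor TAK-418 at 1 mg/kg/day in methylcellulose, or with methylcellulose alone. LSD1 removes methyl groups from histone H3. The labels give the age as 30 days. Of the 14 libraries, 3 came from vehicle-treated wild types, 3 from vehicle-treated mutants, 5 from wild types given TAK-418 and 3 from mutants given it. Every mouse was gavaged, so no group is untreated, and the mutants keep 1 intact copy of Kmt2d in all cells. The design text of the series gives 3 to 4 animals per group, and the labels do not say whether each of the 5 wild-type TAK-418 libraries, or any other, is a separate mouse. They name neither sex nor litter, and the replicate numbers used here follow accession order and only tell libraries apart. Every SD, SE and p-value therefore measures the spread between these libraries, which may in part be technical.

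Hippocampal interneurons are the sparse inhibitory neurons that release GABA onto pyramidal cells, granule cells and each other. Gad1 and Gad2 encode the enzymes that make GABA from glutamate, and Slc32a1 encodes the transporter that loads it into synaptic vesicles, so these genes are shared by nearly all interneurons. The other genes mark classes. Pvalb encodes a calcium buffer of fast-spiking basket and axo-axonic cells, while Sst marks dendrite-targeting cells and Vip marks cells that mostly inhibit other interneurons. Npy marks neurogliaform and ivy cells and some Sst cells. Cck marks another class of basket cell and is also made by pyramidal cells. Reln is made by neurogliaform cells and, at the outer border of the hippocampus, by Cajal-Retzius cells. Htr3a encodes a subunit of the ionotropic serotonin receptor found on Vip, Cck and Reln interneurons.

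For orientation, the 250 bases before the RefSeq start site (GRCm38.p6) are shown for 5 windows: those of Sst, Vip and Cck for the letters they hold, and those of Npy and Pvalb for where their transcripts began. They are written 5′ to 3′ on the strand of the gene. Windows were matched by symbol for 9 of the 10 genes, with 2 for Pvalb, giving 10 windows, and none for Htr3a. Capitals in Sst mark the full cAMP response element TGACGTCA, in Vip and Cck its shorter form TGACG or CGTCA, and in Cck also CACGTG, an E-box. No letters are marked in Npy and Pvalb. The windows are Sst at chr16:23890845-23891094 (minus strand), Vip at chr10:5638968-5639217 (plus), Cck at chr9:121495695-121495944 (minus), Npy at chr6:49822460-49822709 (plus) and Pvalb at chr15:78204238-78204487 (minus).
Sst: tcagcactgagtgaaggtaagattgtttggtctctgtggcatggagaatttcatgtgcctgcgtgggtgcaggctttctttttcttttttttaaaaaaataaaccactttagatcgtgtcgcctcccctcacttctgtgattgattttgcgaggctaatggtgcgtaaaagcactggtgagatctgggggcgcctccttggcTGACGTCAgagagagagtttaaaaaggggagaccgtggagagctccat
Vip: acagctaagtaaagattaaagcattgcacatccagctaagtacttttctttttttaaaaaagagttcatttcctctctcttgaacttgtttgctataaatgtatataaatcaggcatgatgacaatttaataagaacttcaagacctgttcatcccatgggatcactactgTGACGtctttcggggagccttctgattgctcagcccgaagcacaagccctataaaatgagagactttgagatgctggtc
Cck: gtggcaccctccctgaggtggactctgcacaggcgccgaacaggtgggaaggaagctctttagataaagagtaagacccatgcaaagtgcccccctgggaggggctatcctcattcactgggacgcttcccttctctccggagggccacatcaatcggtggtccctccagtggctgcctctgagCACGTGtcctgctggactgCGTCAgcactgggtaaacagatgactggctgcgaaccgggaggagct
Npy: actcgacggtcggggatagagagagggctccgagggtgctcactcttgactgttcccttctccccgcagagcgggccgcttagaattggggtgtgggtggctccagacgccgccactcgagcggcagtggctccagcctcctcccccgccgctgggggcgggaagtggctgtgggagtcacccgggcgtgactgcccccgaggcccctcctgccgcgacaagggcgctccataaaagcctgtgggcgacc
Pvalb: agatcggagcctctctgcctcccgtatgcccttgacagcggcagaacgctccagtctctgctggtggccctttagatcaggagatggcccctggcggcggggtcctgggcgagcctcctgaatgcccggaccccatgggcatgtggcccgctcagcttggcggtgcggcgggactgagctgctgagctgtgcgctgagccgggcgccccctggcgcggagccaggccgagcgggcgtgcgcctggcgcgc

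Both strands were searched over 32851 windows of 250 bases. TGACGTCA, which holds the shorter form on both strands, was found in 1.55% of all windows and, among these genes, in Sst alone, at position -48 from the start site. TGACG on either strand was found in 17.8% of windows and in Cck, Gad2, Sst and Vip, at -79 in Vip and -47 in Cck. CACGTG was found in 6.02% of windows and in Cck and Reln, TATAAA in 12.4% and in Gad1 and Vip, and TAATTA in 4.84% and in none of the 10 windows. A match of letters describes the sequence and is not a measured binding site.

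Transcripts had been assembled separately in each library, and each gene's level here is the summed abundance of its transcripts, on a per-kilobase scale close to FPKM. Replicate 1 of the wild types given TAK-418 had an implied depth of 167.3 M, while the other 13 libraries had 35.0 to 59.7 M. The trapped gene, Kmt2d, averaged 13.99 ± 0.234 (SD, n = 3) in wild-type vehicle and 11.9 ± 2.14 (SD, n = 3) in mutant vehicle libraries, with overlapping ranges. Choroid plexus genes, whose sum was 15.8 to 43.6 in wild-type TAK-418 libraries, summed to 6484 in wild-type vehicle replicate 3 and 5049 in mutant vehicle replicate 1. Another mutant vehicle library was at 912, and a mutant TAK-418 library was at 610. Xist was listed in 6 libraries, 2 of each wild-type group and 1 of each mutant group. Because the tissue is bulk hippocampus, fewer cells of a class and less RNA per cell cannot be told apart.

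The tissue held all 10 markers at clear levels. Per length the means over 14 libraries ran from Cck at 355 and Sst at 273, through Gad1 at 127, Npy at 79.9, Pvalb at 50.2, Gad2 at 42.9 and Slc32a1 at 28.6, to Vip at 11.1, Reln at 9.41 and Htr3a at 8.59. The order Sst over Gad1 over Npy held in 14 of 14 libraries with ranges that did not overlap, as did Gad2 over Slc32a1. Cck exceeded Sst in 11 libraries, Npy exceeded Pvalb in 13 and Pvalb exceeded Gad2 in 11, with overlapping ranges. Reln exceeded Htr3a in 8 libraries only, so the bottom of the order was not resolved per length. The authors' deposited tables differ in part from this order. There the main Reln entry is at 19.2 to 20.5, above Vip at 8.52 to 9.54 and Htr3a at 5.93 to 7.60. Npy at 88.5 to 97.0 overlaps Gad1 at 93.0 to 98.7, and Pvalb at 26.3 to 29.3 overlaps Gad2 at 28.0 to 30.1. Levels per length rest on the assembled length, which for Cck, Sst, Npy and Reln varied between libraries as described below.

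**Figure D1:**
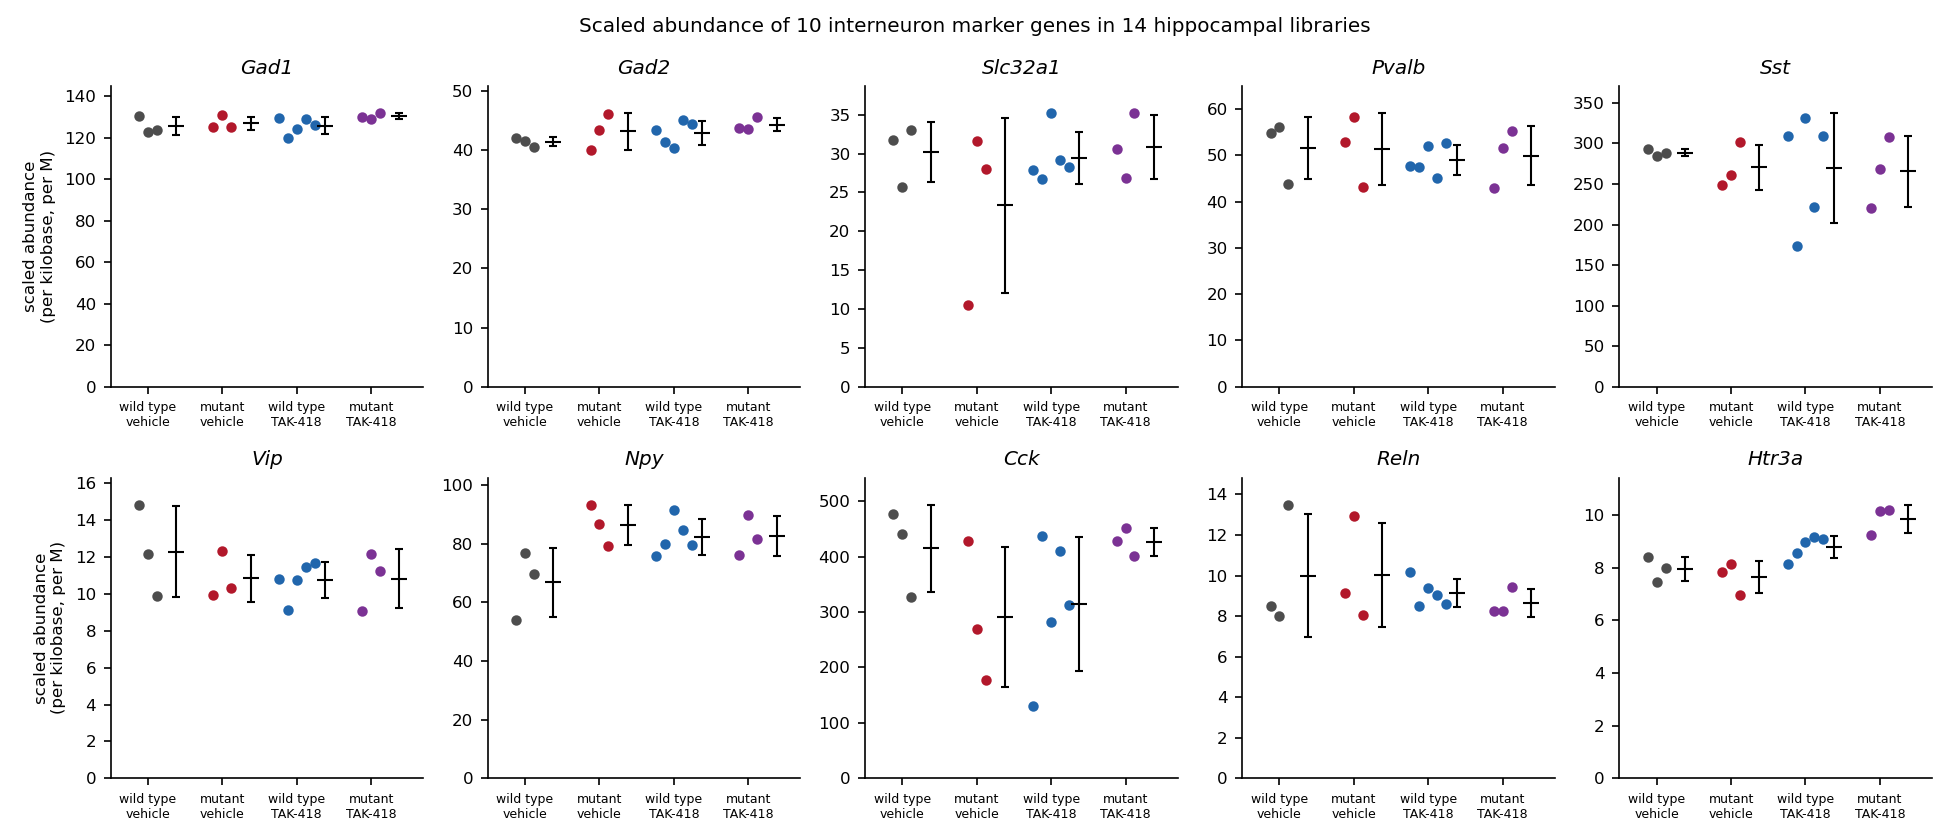
Scaled abundance (per kilobase and per M, y axis from 0) of each marker gene by group; each point is 1 library and the bar beside it is the mean with SD. Gad1 and Gad2 form flat rows, mutant vehicle replicate 1 stands apart for Slc32a1 at 10.5, Cck spreads from 130.5 to 478, and the 3 mutant TAK-418 libraries are the highest for Htr3a.

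The genes for GABA synthesis were nearly constant between libraries. Gad1, at chr2:70553072-70602014 on the plus strand of GRCm38, was 130.4, 123 and 124 in wild-type vehicle, 125, 131 and 125 in mutant vehicle, 129.6, 119.9, 124, 129 and 126 in wild-type TAK-418, and 130.1, 129 and 132 in mutant TAK-418 libraries. All 4 groups overlapped, and the coefficient of variation over 14 libraries was 2.84%, while the median of the 13273 genes with a value in every library was 10.6%, and 0.889% of those genes varied less than Gad1. Gad2, at chr2:22622205-22693874 on the plus strand, was 42.1, 41.6 and 40.5, then 39.9, 43.4 and 46.1, then 43.3, 41.4, 40.3, 45.01 and 44.4, and 43.8, 43.6 and 45.5 in the same order of groups. Its coefficient of variation was 4.61%.

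Both enzymes were assembled as a single transcript in all 14 libraries, with 17 exons for Gad1 and 16 exons for Gad2. Over 4 group comparisons the 95% intervals of the Gad1 log2 difference stayed between -0.07 and 0.13, which is 0.950 to 1.09 on the fold scale. Those of Gad2 stayed between -0.08 and 0.18. The Gad2 to Gad1 ratio was 0.338 ± 0.0132 (SD, n = 14). Exact two-sided permutation tests of that ratio in 4 comparisons gave unadjusted p-values of 0.214 to 1, each 1 after adjustment over 8 ratio tests, and the smallest p that 3 against 3 libraries allow is 0.1.

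Slc32a1, at chr2:158610767-158615748 on the plus strand, was low in 1 library. It was 31.7, 25.8 and 33.1 in wild-type vehicle, 10.5, 31.6 and 28.0 in mutant vehicle, 27.9, 26.8, 35.2, 29.2 and 28.3 in wild-type TAK-418, and 30.5, 26.9 and 35.2 in mutant TAK-418 libraries. The low library was mutant vehicle replicate 1, where Gad1 was 125, within the range of the others, and Gad2 was 39.9, the lowest of the 14. The same library held choroid plexus genes at 5049, and whether the 2 are linked was not tested. Multiplied by transcript length it was again lowest, at 25.3 against 71.6 to 83.7 in the other 13.

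The group difference of Slc32a1 rested on that library. Its log2 difference, singled out after its values were seen, was -0.49 ± 0.302 (SE) for mutants against wild types under vehicle (unadjusted limma p of 0.133, adjusted 0.948) and -0.01 without mutant vehicle replicate 1. For TAK-418 in mutants it was 0.52 (limma adjusted p of 1) and 0.04 without that library. The other 2 mutant vehicle libraries averaged 29.8 ± 2.51 (SD, n = 2) against 30.2 ± 3.89 (SD, n = 3) in wild-type vehicle. In the authors' deposited table, which pools the libraries of a group, vehicle mutants stand at 22.5 and vehicle wild types at 21.4, so the pooled value is not lower in mutants. The assembled start of Slc32a1 lay 230 bases before the RefSeq start in 7 libraries and 293 to 321 bases after it in the other 7.

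Pvalb, at chr15:78191114-78206400 on the minus strand, varied over about the same range in every group. It was 54.9, 56.02 and 43.9 in wild-type vehicle, 52.8, 58.2 and 43.1 in mutant vehicle, 47.7, 47.4, 52.1, 45.01 and 52.6 in wild-type TAK-418, and 42.9, 51.5 and 55.3 in mutant TAK-418 libraries. No group stood apart. The assembled transcript began at position 78204185 in all 14 libraries, 52 bases after the downstream RefSeq start whose upstream sequence is printed above, and 2215 bases after the upstream one. No library held a Pvalb transcript beginning at the upstream start.

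Sst, the somatostatin precursor at chr16:23889573-23890958 on the minus strand, was tight in wild-type vehicle and wide elsewhere. It was 293, 284 and 288 in wild-type vehicle, 249, 261 and 301 in mutant vehicle, 309, 174, 332, 222 and 309.5 in wild-type TAK-418, and 220.1, 268 and 308 in mutant TAK-418 libraries. In 2 libraries, at 174 and 222, all Sst abundance was on transcripts of 3 exons that begin upstream of the annotated gene. Mutant TAK-418 replicate 1 was also low, at 220.1. Its Sst transcript had 2 exons and 713 bases, and it too began upstream of the annotated gene. Replicate 2 of that group, at 268, had a mean Sst length of 718 bases. Transcripts of 3 exons were assembled in 8 of 14 libraries and carried 22.7% to 100% of the abundance there. The mean assembled length ranged from 473 to 800.0 bases.

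Multiplied by transcript length, a quantity closer to the share of fragments, Sst was 139.6, 139 and 156 in wild-type vehicle against 166, 178 and 164 in mutant vehicle libraries. These 2 groups did not overlap on that scale, where they overlapped per length, and 10.1% of all 16569 genes did not overlap there. The log2 difference on that scale, looked at after its values were seen, was 0.23 ± 0.0937 (SE), with an unadjusted limma p of 0.0334 and an adjusted p of 0.888. The authors' deposited table has Sst at 249 for wild types and 249.7 for mutants given vehicle, with a q-value of 1.00. The 3 measures therefore differ on whether Sst was lower, higher or level in vehicle mutants, and none passed its adjusted threshold.

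The Pvalb to Sst ratio compares the markers of the fast-spiking and the dendrite-targeting class. It was 0.188 ± 0.0341 (SD, n = 14) per length and 0.162 ± 0.0227 (SD, n = 14) on abundance multiplied by length. Exact two-sided permutation tests in the same 4 comparisons gave unadjusted p-values of 0.6 to 1, each 1 after adjustment, and the direction turned with the scale in 3 of the 4. Multiplied by length, the log2 difference was -0.27 (exact p of 0.3) for mutants under vehicle and -0.27 (exact p of 0.107) for TAK-418 in wild types.

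Vip, at chr10:5639218-5647617 on the plus strand, was assembled as 1 transcript of 7 exons in all 14 libraries. Its abundance was 14.8, 12.2 and 9.87 in wild-type vehicle, 9.92, 12.3 and 10.3 in mutant vehicle, 10.8, 9.13, 10.7, 11.4 and 11.7 in wild-type TAK-418, and 9.05, 12.1 and 11.3 in mutant TAK-418 libraries. Wild-type vehicle held both the highest value and a value near the low end. Over 4 comparisons the Vip log2 difference lay between -0.17 and 0.00, with intervals reaching from -0.47 to 0.31.

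Npy, the neuropeptide Y precursor at chr6:49822710-49829507 on the plus strand, was the one gene of the 10 whose genotypes did not overlap under vehicle per length, where 8.9% of all genes did not. It was 53.9, 76.8 and 69.6 in wild-type vehicle and 93.0, 86.7 and 79.3 in mutant vehicle libraries. All 3 mutants were above all 3 wild types. Under TAK-418 it was 75.8, 79.9, 91.4, 84.8 and 79.4 in wild types and 76.1, 89.7 and 81.5 in mutants, and these groups overlapped.

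The Npy log2 difference of mutants from wild types under vehicle was 0.38 ± 0.117 (SE, 3 against 3), with an unadjusted limma p of 0.00734 and an adjusted p of 0.693. TAK-418 against vehicle in wild types differed by 0.31 ± 0.105 (SE, 5 against 3), with an unadjusted limma p of 0.0122 and an adjusted p of 0.447. The interaction was -0.38 ± 0.157 (SE), with an unadjusted limma p of 0.0345 and an adjusted p of 0.977. All 3 contrasts use the vehicle wild types, so they share the low value of 53.9.

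That low value came with a longer transcript. In wild-type vehicle replicate 1 the Npy transcript measured 814 bases and began 312 bases before the RefSeq start, beyond the printed window. In the other 13 libraries it measured 499 to 506 bases and began 9 bases before that start. Multiplied by length, Npy was 44.2, 38.9 and 35.6 in wild-type vehicle and 47.9, 43.8 and 40.0 in mutant vehicle libraries, which overlapped. On that scale the differences were 0.15 (unadjusted limma p of 0.173, adjusted 0.996) for genotype under vehicle and 0.05 (unadjusted limma p of 0.603, adjusted 0.879) for TAK-418 in wild types. The interaction on that scale was -0.13 (unadjusted limma p of 0.356, adjusted 0.991). Without wild-type vehicle replicate 1 the per-length differences were 0.23 and 0.16. The authors' deposited table has Npy at 88.5 for wild types and 96.8 for mutants given vehicle, a log2 fold change of 0.13 with a q-value of 1.00.

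Htr3a, at chr9:48899213-48911099 on the minus strand, was highest in treated mutants. It was 8.41, 7.47 and 7.97 in wild-type vehicle, 7.84, 8.12 and 6.95 in mutant vehicle, 8.15, 8.54, 8.96, 9.17 and 9.08 in wild-type TAK-418, and 9.25, 10.1 and 10.2 in mutant TAK-418 libraries. All 3 mutant TAK-418 libraries were above every library of the other groups. The share of all genes with such a separation was not counted. Between 2 groups, 8.19% of all genes did not overlap for TAK-418 in mutants and 4.56% for genotype under TAK-418. The level rests on an implied 502 to 1053 fragments in the 13 libraries of usual depth.

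In mutants the Htr3a log2 difference of TAK-418 from vehicle was 0.34 ± 0.0717 (SE, 3 against 3), with an unadjusted limma p of 0.000558 and an adjusted p of 0.385. Treated mutants differed from treated wild types by 0.15 ± 0.0641 (SE, 3 against 5), with an unadjusted limma p of 0.0358 and an adjusted p of 0.926. In wild types the drug difference was 0.13 (unadjusted limma p of 0.065, adjusted 0.612), and the interaction, which compares the drug difference between genotypes, gave an unadjusted limma p of 0.0548 and an adjusted p of 0.977.

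Htr3a kept the same order of group values on all 3 measures. Multiplied by length it was 15.2, 15.3 and 13.3 in mutant vehicle and 17.7, 19.0 and 19.5 in mutant TAK-418 libraries, again without overlap. On that scale 11.2% of all genes did not overlap in this comparison. The log2 difference was 0.35 (unadjusted limma p of 0.00148, adjusted 0.757). The authors' deposited tables give 5.93 to 5.94 in vehicle mutants, 6.07 to 6.11 in vehicle wild types, 6.88 to 6.93 in treated wild types and 7.58 to 7.60 in treated mutants. In the authors' deposited table of treated mutants over vehicle wild types, Htr3a has a log2 fold change of 0.31, a p of 0.028 and a q-value of 0.781. These tables were made from the same series and are not independent of the libraries.

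**Figure D2:**
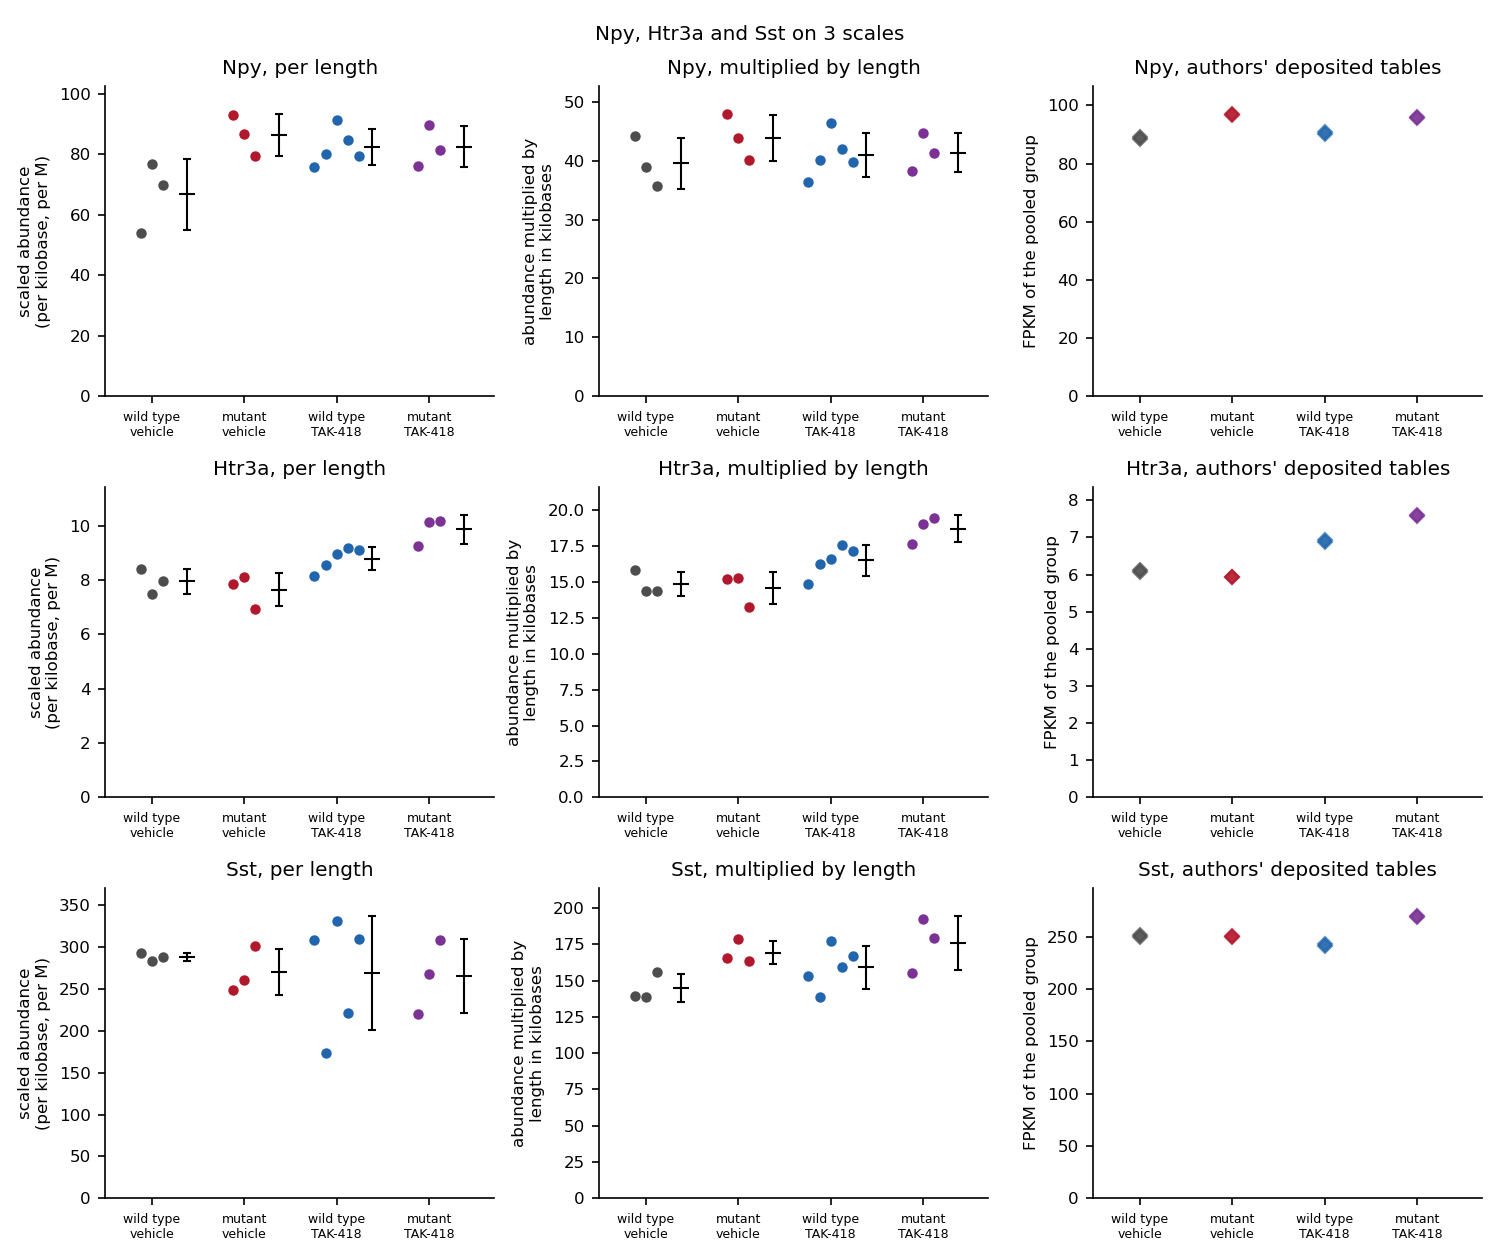
Npy, Htr3a and Sst by group as abundance per length (left), abundance multiplied by length in kilobases (middle) and FPKM of the authors' pooled groups (right), y axes from 0; points are libraries with mean and SD bars, and diamonds are the values of a group in the deposited tables. The 3 mutant TAK-418 libraries are highest for Htr3a in both library columns, while the gap between vehicle groups for Npy, 66.8 against 86.3 per length, is 39.6 against 43.9 when multiplied by length.

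Cck, the cholecystokinin precursor at chr9:121489824-121495694 on the minus strand, had the widest spread. It was 478, 440.2 and 327 in wild-type vehicle, 428, 269 and 177 in mutant vehicle, 130.5, 437, 282, 410.3 and 312 in wild-type TAK-418, and 428, 451 and 401 in mutant TAK-418 libraries. Every pair of groups overlapped. It had the largest log2 difference of the 10 genes in all 5 contrasts, -0.58 for genotype under vehicle, 0.64 for TAK-418 in mutants, -0.50 for TAK-418 in wild types, 0.55 for genotype under TAK-418 and 1.14 for the interaction. The unadjusted limma p-values were 0.0598 to 0.198 and the adjusted ones 0.735 to 1.

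Cck was lower where its assembled transcripts were longer. The mean transcript length was 604 to 626 bases in the 7 libraries at 410.3 or more, and 2371 bases in the deepest library, where the level was 130.5. In 7 libraries the transcripts ended past the annotated end of the gene, and in 5 of them transcripts of 4 exons carried 83.7% to 100% of the abundance. Multiplied by length, Cck was 248 to 338 in all 14 libraries, and the coefficient of variation was 9.15% against 30.4% per length. On that scale all 5 differences turned their sign, to 0.10, -0.09, 0.02, -0.01 and -0.11 in the order given above. The authors' deposited tables give Cck at 434 to 455 in all groups.

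Reln, at chr5:21884454-22344702 on the minus strand, also varied less once length was counted. Per length it was 8.48, 8.02 and 13.5 in wild-type vehicle, 9.15, 12.9 and 8.03 in mutant vehicle, 10.2, 8.48, 9.40, 9.05 and 8.59 in wild-type TAK-418, and 8.26, 8.24 and 9.43 in mutant TAK-418 libraries. The 2 highest values, 13.5 and 12.9, were from the 2 libraries with the shortest mean assembled transcript, 6499 and 7254 bases. The transcript of 65 exons was assembled in 8 libraries, at 11089 to 11568 bases. Multiplied by length, Reln ranged from 86.9 to 100.4 and its coefficient of variation was 3.98%, against 18.4% per length.

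**Figure D3:**
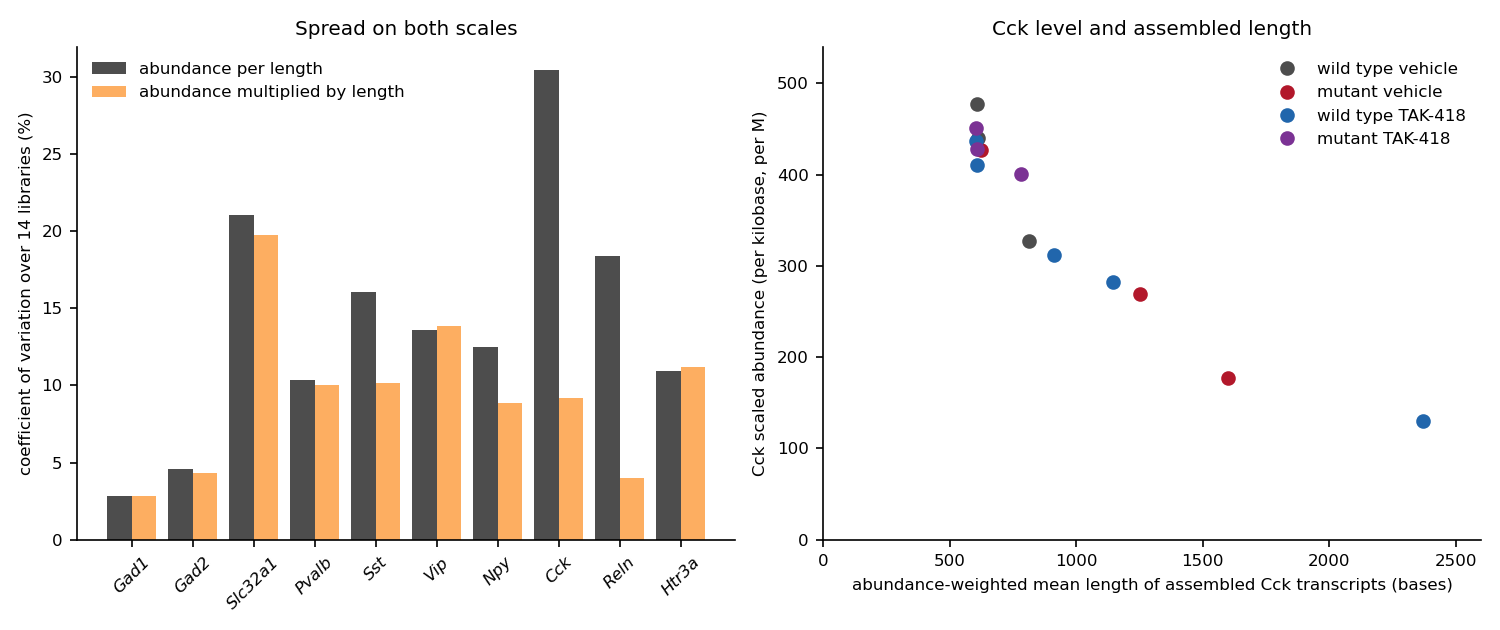
Left, coefficient of variation over 14 libraries (%, from 0) of each marker gene per length and multiplied by length; right, scaled abundance of Cck (per kilobase and per M) against the abundance-weighted mean length of its assembled transcripts (bases), 1 point per library. The spread of Cck is 30.4% and 9.15% on the 2 scales, and the Cck point at 2371 bases is the lowest, at 130.5.

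Set against all genes, none of the 5 contrasts called a marker. For genotype under vehicle 0 of 10 genes passed an adjusted limma p of 0.05, and 0 of 16569 genes did (0%). For TAK-418 in mutants 0 of 10 passed against 0.00604% of all genes, for TAK-418 in wild types 0 of 10 against 0.00604%, for genotype under TAK-418 0 of 10 against 0.0121%, and for the interaction 0 of 10 against 0.00604%. Unadjusted, 1 of 10 had a p under 0.05 in each contrast, Npy or Htr3a as given above. The shares of all genes were 5.46% for genotype under vehicle, 4.39% and 8.43% for the drug in mutants and in wild types, 4.92% for genotype under TAK-418 and 4.42% for the interaction, so 1 gene of 10 is near the background.

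Groups failed to overlap for 1 of 10 genes for genotype under vehicle (Npy; 8.9% of all genes), 1 for TAK-418 in mutants (Htr3a; 8.19%), 0 for TAK-418 in wild types (6.33%) and 1 for genotype under TAK-418 (Htr3a; 4.56%). Multiplied by length these counts were 1 (Sst; 10.1%), 1 (Htr3a; 11.2%), 0 (2.3%) and 2 (Gad1 and Htr3a; 3.69%). Apart from Cck and the genes with an unadjusted p under 0.05, the 8 other genes differed by -0.49 to 0.06 for genotype under vehicle, -0.17 to 0.52 for TAK-418 in mutants, -0.17 to 0.13 for TAK-418 in wild types and -0.07 to 0.06 for genotype under TAK-418, on the log2 scale. The median over the 10 genes was -0.03, 0.01, -0.05 and 0.03 in these contrasts, where that of all genes was 0, 0.00, -0.00 and 0.00. By q-value under 0.05, the authors' deposited tables called 0 of 10 genes for vehicle mutants over vehicle wild types (0.224% of tested loci), treated mutants over treated wild types (0.218%), treated mutants over vehicle wild types (0.324%) and vehicle mutants over treated wild types (0.611%). By unadjusted p under 0.05 the authors' deposited tables called 0, 0, 1 (Htr3a) and 0 genes in that order, where the shares of tested loci were 4.32%, 4.1%, 4.49% and 6.48%.

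**Figure D4:**
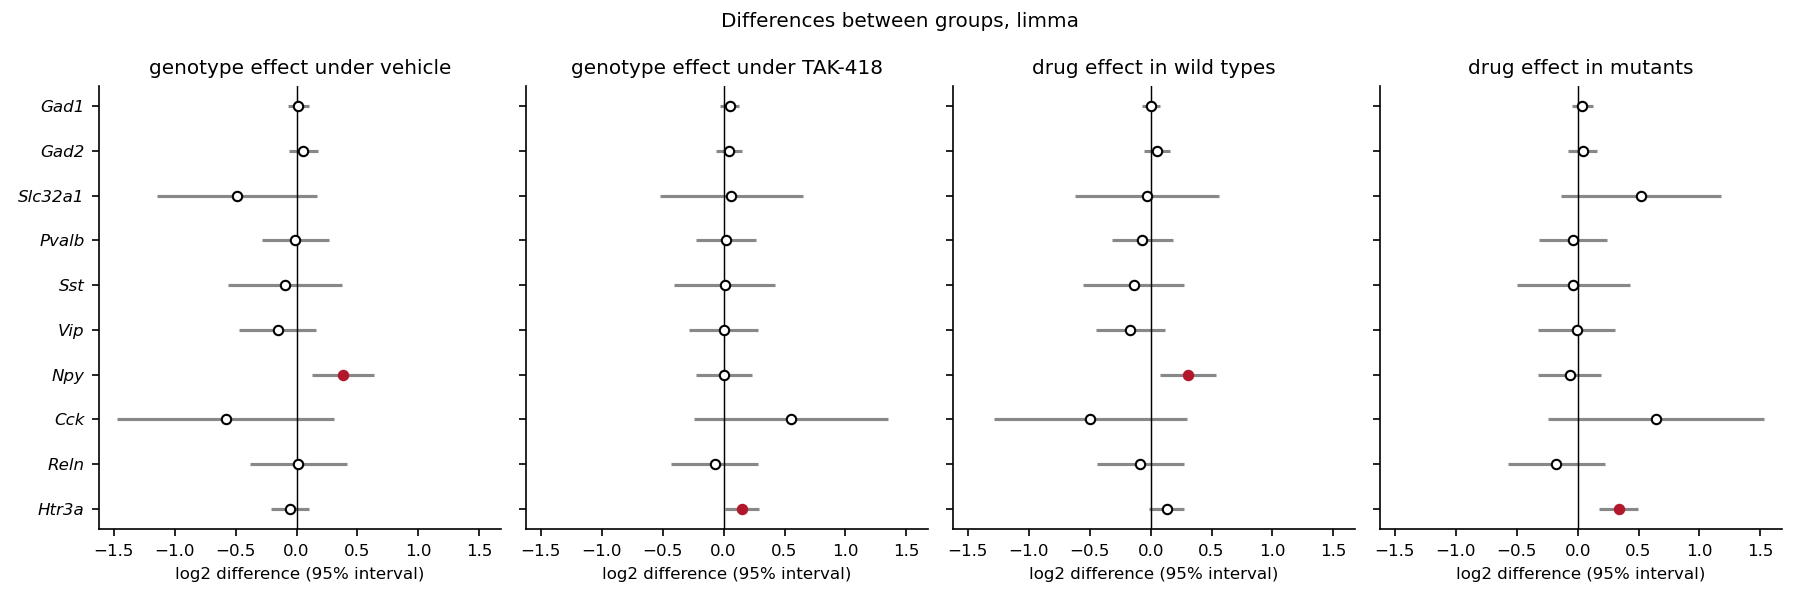
Log2 difference and its 95% interval (limma) of each marker gene in 4 comparisons; filled points have an unadjusted p under 0.05. The intervals of Gad1 are the narrowest, within -0.07 to 0.13, and those of Cck the widest, from -1.47 to 1.53.

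Pairs of markers were compared across libraries. Over 14 libraries the 45 pairs of genes had Pearson r from -0.45 to 0.66, with a median of 0.12. No pair passed a permutation test adjusted over 45 pairs, the smallest adjusted p being 0.442, and 2 pairs had an unadjusted p under 0.05. Pvalb and Vip had the highest r, 0.66 (permutation p of 0.00983, adjusted 0.442), with a Spearman rho of 0.72 (permutation p of 0.00532, adjusted 0.239). Without the 2 libraries farthest from the median of Pvalb their r was 0.57. Gad1 and Gad2 had an r of 0.55 (permutation p of 0.0426, adjusted 0.814) and a rho of 0.50 (permutation p of 0.0682, adjusted 0.614), and r was 0.50 without the 2 libraries farthest from the median of Gad1. Taking deviations from the group means gave r from -0.60 to 0.67 with 0 adjusted calls and 6 pairs at an unadjusted p under 0.05. Multiplied by length, a setting chosen after the data were seen, 36 of 45 pairs were positive against 29 per length, the median r was 0.30, and Sst with Cck turned from -0.45 to 0.45, again with 0 adjusted calls. The libraries share their depth and scaling across all pairs.

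**Figure D5:**
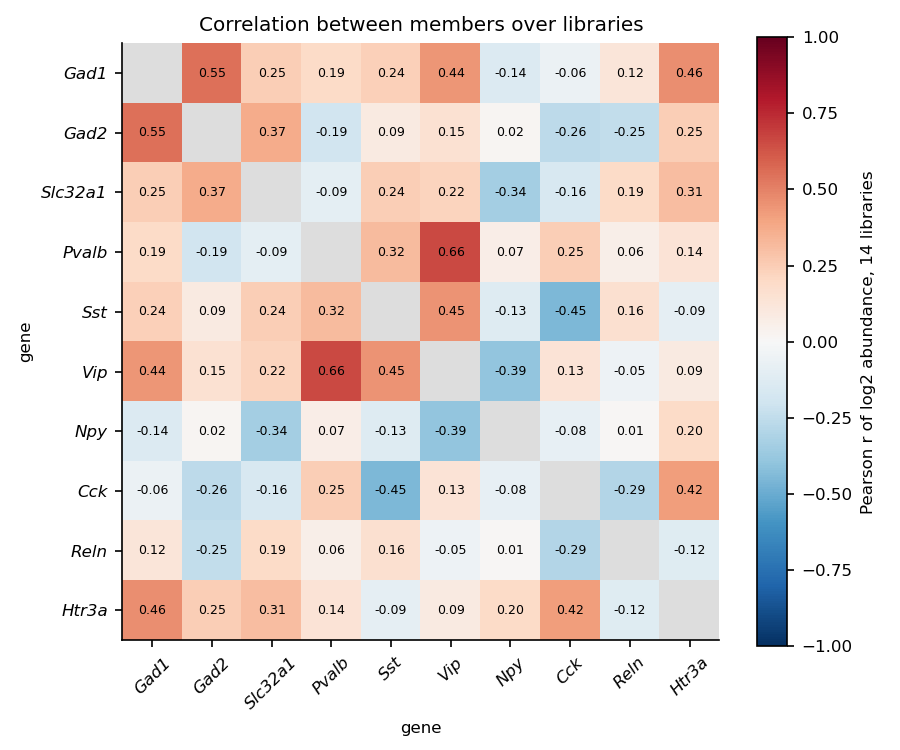
Pearson r of log2 abundance between each pair of marker genes over 14 libraries, red positive and blue negative, with the value in each cell. Pvalb with Vip at 0.66 is the highest and Sst with Cck at -0.45 the lowest on this per-length scale; multiplied by length the latter is 0.45.

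For each marker the genes most like it over the 14 libraries were taken among the 13273 genes with a value in all of them, as a description by Pearson r. They were Xlr3a (0.89) and Dnajc10 (0.87) for Gad1, Sema3e (0.81) and Rab9b (0.81) for Gad2, Ism1 (0.95) and Asb1 (0.94) for Slc32a1, Sem1 (0.92) and Cox7a2 (0.91) for Pvalb, and Prmt2 (0.83) and Lypd1 (0.81) for Sst. For Vip they were Eif1a (0.90) and Mat2b (0.84), for Npy Plod3 (0.88) and Naif1 (0.87), for Cck Gm5577 (0.90) and Srp19 (0.90), for Reln Zfp407 (0.89) and Tmem178 (0.87), and for Htr3a Minar2 (0.90) and Colca2 (0.85). None of the other 9 markers was among these genes. Each r is over all 14 libraries, so for Slc32a1 it includes the low library, mutant vehicle replicate 1 at 10.5. The part of that library in the r of Slc32a1 was not tested.

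Genes around the markers were read per length from 9 further lists, and none held a gene past the adjusted threshold in any contrast. Of the 9 genes that take up, break down or supply GABA, all 9 were higher with TAK-418 in wild types, where 48.9% of all genes were (median log2 difference 0.08). Of these, 2 had an unadjusted p under 0.05, against 8.43% of all genes. In mutants 3 of 9 were higher with the drug (median -0.01), where 50.6% of all genes were. Mutants were higher than wild types for 7 of 9 under vehicle (median 0.06, 50% of all genes). Under TAK-418 they were higher for 0 of 9 (median -0.04, 51.1% of all genes). In these 3 contrasts 0 of the 9 were at that p. Slc6a13, a GABA transporter, was 2.99 ± 0.115 (SD, n = 3) in vehicle and 3.92 ± 0.748 (SD, n = 5) in TAK-418 wild types, with a limma adjusted p of 0.519. Slc6a11, the glial GABA transporter, had the smallest interaction p of the list, 0.0205 unadjusted and 0.977 adjusted by limma.

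Among 20 further genes of interneuron subtypes, 2 were higher with TAK-418 in mutants at an unadjusted p under 0.05 (4.39% of all genes) and 3 were lower in mutants than in wild types under vehicle (5.46%). With TAK-418 in wild types 2 were higher and 2 lower (8.43%), under TAK-418 4 were higher in mutants (4.92%), and 3 had a positive interaction (4.42%). Tac1, the tachykinin precursor, was 8.72 ± 0.477 (SD, n = 3) in vehicle and 12.3 ± 1.79 (SD, n = 3) in TAK-418 mutants, a log2 difference of 0.45 ± 0.109 (SE) with a limma adjusted p of 0.543. Chrna2, a nicotinic receptor subunit of dendrite-targeting cells, had no assembled transcript in any of the 3 mutant vehicle libraries. It averaged 0.880 ± 0.493 (SD, n = 3) in wild-type vehicle ones, near the limit of assembly. The limma adjusted p of Chrna2 was 0.622 in that comparison, and its smallest, 0.322, was for TAK-418 in wild types. Of 14 lineage factors, 1 had an unadjusted p under 0.05 with the drug in each genotype, near the share of all genes (4.39% in mutants and 8.43% in wild types). Lhx6, a factor of Pvalb and Sst cells, was 7.62 ± 0.660 (SD, n = 3) in vehicle and 8.60 ± 0.355 (SD, n = 3) in TAK-418 mutants (limma adjusted p of 1). Npas1 was 6.58 ± 0.0738 (SD, n = 3) in vehicle and 8.21 ± 1.52 (SD, n = 5) in TAK-418 wild types (limma adjusted p of 0.490).

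On the receiving side, 12 of 16 receptors and partners of these peptides and of reelin had a value. No assembled transcript was assigned to Sstr4, Sstr5, Cckar or Htr3b, the partner subunit of Htr3a, in any of the 14 libraries. A low level and absence cannot be told apart there. In vehicle mutants 4 of the 12 were lower and 1 was higher than in vehicle wild types at an unadjusted p under 0.05, where 5.46% of all genes passed it. With TAK-418, 3 were higher in mutants (4.39% of all genes) and 2 in wild types (8.43%), and 2 had a positive interaction (4.42%). The 3 higher in treated mutants were among the 4 lower in vehicle mutants, and both contrasts use the same vehicle mutant libraries. Sstr1 was among them, at -1.83 ± 0.793 (SE) for genotype under vehicle, and had a value in only 13 of 14 libraries. Npy2r, a presynaptic receptor for neuropeptide Y, was 29.8 ± 1.12 (SD, n = 3) in wild-type and 36.5 ± 3.31 (SD, n = 3) in mutant vehicle libraries, a log2 difference of 0.28 ± 0.0681 (SE) with a limma adjusted p of 0.622. Dab1, the adaptor of the reelin receptors, was 34.5 ± 1.34 (SD, n = 3) and 28.2 ± 2.74 (SD, n = 3), a difference of -0.29 ± 0.0714 (SE) with the same adjusted p. Npy2r and Dab1 are given per length only, and a link of either to its ligand was not tested.

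Markers of other cell types give the setting of these values. The 8 genes of glutamatergic principal cells summed to 2544 to 3776. By their medians Nrgn, at 227 to 1523, and Camk2a, at 1028 to 1219, were highest, ahead of Slc17a7 at 588 to 738. The 5 genes of Cajal-Retzius cells, Reln among them, summed to 9.93 to 16.1. Trp73 of that list was listed in all 14 libraries, at 1.104 to 3.27, and Lhx1 in 2. The 7 genes of striatal projection neurons, GABAergic cells from outside the hippocampus, summed to 46.1 to 68.1, with Drd1 at 0 to 3.32 and Drd2 at 1.18 to 2.57. The 6 listed thalamic genes summed to 24.7 to 26.4 in mutant vehicle and 27.5 to 29.5 in wild-type vehicle libraries, which did not overlap. The glutamatergic sums did not overlap there either, at 3382 to 3511 in mutant vehicle and 3316 to 3366 in wild-type vehicle libraries. Of single genes, 8.9% did not overlap in that comparison. The part of these other cell types in the values of the markers was not tested. Without the 2 libraries richest in choroid plexus RNA, a setting chosen after the data were seen, the differences were 0.36 for Npy under vehicle, 0.35 for Npy with TAK-418 in wild types and 0.35 for Htr3a with TAK-418 in mutants, and again 0 of 10 genes were called in each contrast. In the same setting Cck moved from -0.58 to -1.07 for genotype under vehicle (unadjusted limma p of 0.0466, adjusted 0.915). It moved from 0.64 to 0.96 for TAK-418 in mutants (unadjusted limma p of 0.0489, adjusted 1) and from 1.14 to 1.62 for the interaction (unadjusted limma p of 0.0195, adjusted 0.897). The pair left out held the vehicle wild type with the longest mean Cck transcript, 814 bases, and the vehicle mutant with the shortest, 626 bases. The vehicle libraries that stayed had 609 and 614 bases in wild types and 1251 and 1600 bases in mutants. This setting was run per length, where Cck was lower with longer transcripts. It kept the mutant vehicle library with choroid plexus genes at 912 and the mutant TAK-418 library at 610.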

How the data were processed

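RNA sequencing of hippocampus gave 14 libraries. Per the submitters' processing notes, reads passed FastQC and were aligned with TopHat2 2.1.0 to mm10, and per the file headers transcripts were assembled in each library with CLASS 2.1.7. The deposited abundance of each transcript is a score close to FPKM, per kilobase of the assembled transcript. The authors' tables of group comparisons hold FPKM, log2 fold changes, p-values and q-values of pooled groups, per the file headers, and the deposited columns give no spread.

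Transcripts were assigned to GENCODE M21 genes by shared introns, or for single exons by an overlap of 50% or more, and summed per gene. Values were scaled by median of ratios, and log2(value + 0.88) was fitted in limma 3.58.1 (R 4.3.3) with 4 groups in 1 fit over 16569 genes that had a value in at least 3 libraries. P-values were adjusted by Benjamini-Hochberg over all genes tested, with a threshold of 0.05. A fold change on this scale understates the change of low genes. Ratios were compared by exact permutation tests, which 3 against 5 libraries cannot take below 0.0179, and correlations by 100000 permutations. The fit was also run on simulated data, whose outcome is not given here and is not used as evidence. Implied fragments were read from the step size of low values, where 81.4% to 89.2% of values were whole steps within 0.1, so depth is an estimate.

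The genes and lists were chosen with earlier results of these data known. Every marker is described, with a fold change where its unadjusted p was under 0.05 or its change was the largest of a contrast; Slc32a1, and Sst multiplied by length, were added after their values were seen. From each other list the 2 genes with the smallest p could be named, and 2 genes most like each marker. Sstr1 was named besides, for its missing value. Alternatives were other pseudocounts, filters, transcript choices, length scales and scalings, fits of only the groups compared, Xist as a covariate and leaving out each library. Gene sums, ratios and figures were made in Python 3.11.15 with scipy 1.17.1, pandas 2.3.3, numpy 2.4.6 and matplotlib 3.10.9.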

Additional observations from a re-analysis of the deposited data

Results flagged for a closer look

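In wild types given TAK-418, replicate 3 was far from its group for Slc32a1, at a scaled abundance of 35.2 where the other 4 libraries were at 26.8 to 29.2. Its gap to the nearest library was 0.714 of the range of the group, above the critical value of 0.71 for 5 samples. It was the 1 such value among 20 measures screened, and chance marks about 1 group in 20. The same gene multiplied by length was 83.6 in that library and 76.2 to 83.5 in the others.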

How the results depend on the processing

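In each of the 5 contrasts 0 of 10 markers passed the adjusted threshold under every alternative run, and the directions of Npy and Htr3a held in the contrasts where they are reported. Without wild-type vehicle replicate 1, Npy was 0.23 for genotype under vehicle, 0.16 for TAK-418 in wild types and -0.23 for the interaction. The Htr3a difference between treated genotypes was 0.10 with the highest transcript only, 0.068 without scaling and 0.085 with a pseudocount 10 times as large. For TAK-418 in mutants, Htr3a was 0.56 with the highest transcript only and 0.18 with that pseudocount. Multiplied by length, the Cck differences reversed to 0.10, -0.089, 0.019, -0.0071 and -0.11 for genotype under vehicle, TAK-418 in mutants, TAK-418 in wild types, genotype under TAK-418 and the interaction. Leaving out 1 library put the Cck difference between -0.91 and -0.27 for genotype under vehicle (mutant vehicle replicates 1 and 3), 0.33 and 0.96 for TAK-418 in mutants (replicates 3 and 1), -0.66 and -0.21 for TAK-418 in wild types, 0.27 (without wild-type TAK-418 replicate 1) and 0.70 for genotype under TAK-418, and 0.82 and 1.46 for the interaction. Without the 2 libraries richest in choroid plexus RNA, chosen after seeing the data, Slc32a1 for genotype under vehicle reversed to 0.056; that pair includes mutant vehicle replicate 1, without which alone it was -0.013.

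The ratio differences changed sign most often. Multiplied by length, Pvalb to Sst was -0.27 for genotype under vehicle, -0.27 for TAK-418 in wild types and -0.11 for genotype under TAK-418, and with the highest transcript only the last was -0.22 (exact permutation p of 0.0357, adjusted 0.286). Leaving out 1 library put it between -0.032 and 0.29, -0.21 and 0.12, -0.065 and 0.15, and -0.055 and 0.15 for genotype under vehicle, TAK-418 in mutants, TAK-418 in wild types and genotype under TAK-418. Gad2 to Gad1 lay between -0.019 and 0.085, -0.041 and 0.063, 0.032 and 0.067, and -0.021 and 0.0081 in the same order. Without scaling 3 of 45 correlations passed, the highest at 0.912; the cause was not tested.

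No paired analysis was possible because the labels give no replicate, litter or batch that ties libraries of different groups; the replicate numbers follow accession order. Vip and Htr3a, the markers with the fewest implied fragments, rest on as few as 445 and 502 in the shallowest case.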
